A study of Mus musculus with 16 samples.

Results

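Satellite cells are the stem cells of skeletal muscle, and here their progeny, the myoblasts, were compared in 2 cultures 72 hr after isolation: still attached to the muscle fiber they came from (myofiber-associated, Mf-A), or grown away from it on gelatin-coated plates (dispersed). The comparison takes 8 of the 16 arrays of the series, those labeled with the 72-hr time, of which 4 carry the Mf-A growth type and 4 the dispersed one. The other 8 arrays hold the same cultures at 48 hr, and they enter where the difference between cultures at 72 hr is set against the one at 48 hr. All cells came from male C57Bl/6J mice of 11 to 13 weeks, with no other genotype and no drug. Each Mf-A replicate was 1 preparation from 2 mice, in which explanted fibers were cultured and the myoblasts were then stripped off with trypsin and pooled with those that came off in the washes. Each dispersed replicate was 1 preparation from 1 mouse. The exception was 1 Mf-A array at 48 hr, labeled replicate 10+11, which was a pool. The source name in the labels calls every sample myofibers, including the dispersed ones, and the growth type was used in its place. The labels also state that quality controls found no fiber RNA in the Mf-A preparations. RNA was labeled with Cy3 and hybridized to one-color Agilent mouse arrays, and each value below is the log2 of the scanner's processed signal after quantile normalization over the 8 arrays.

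Each culture sat on its own slide and was scanned in its own session, and the effects of culture and slide cannot be told apart here. The 8 arrays had 57.5% to 64.3% of their probes well above background and no saturated spot. Pairs of Mf-A arrays correlated at 0.982 to 0.996 over genes, pairs of dispersed arrays at 0.993 to 0.998, and pairs across the cultures at 0.944 to 0.968. The SD of a gene over the 4 arrays of a culture had a median of 0.183 in Mf-A and 0.105 in dispersed myoblasts. The 6 E1A spike-in RNAs that are well above background on all 8 arrays, which are added to each labeling reaction, averaged 10.89 ± 0.196 on the Mf-A arrays and 12.26 ± 0.0766 on the dispersed arrays before normalization (log2 signal, SD, n = 4). That is a difference of -1.38 (two-sided exact permutation test, p = 0.0286, which is the lowest value 4 against 4 arrays can give), with the single spike-ins between -1.53 and -1.21. The same spike-ins differed by -1.22 between the slides at 48 hr, and by -1.20 after quantile normalization of the 72-hr arrays. Scaling the arrays to the spike-ins instead would move the median of all genes up by 1.23 and the share of calls that are higher in Mf-A from 43.0% to 97.7%. Every "higher" and "lower" below is therefore relative to the bulk of the genes, and a log2 difference between about -1.2 and 0 would lie above 0 on the spike-in scale. In RNA from whole preparations, fewer cells of a type and less RNA per cell cannot be told apart.

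**Figure D1:**
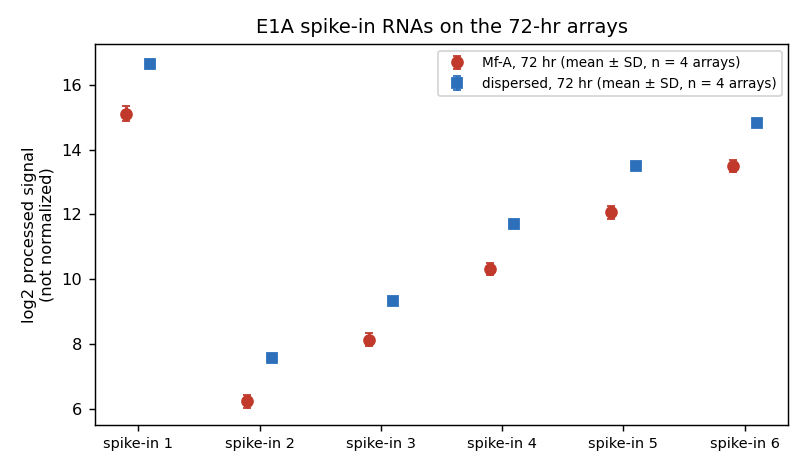
Log2 processed signal of the 6 E1A spike-in RNAs before normalization (vertical axis), as mean ± SD of 4 arrays, for the Mf-A (red circles) and dispersed (blue squares) 72-hr arrays. Each spike-in was lower on the Mf-A slide, by 1.21 to 1.53 log2 units, over a range of signal from about 6 to 17.

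Activated myoblasts express the determination factor Myod1 and divide, and those that differentiate switch on myogenin (Myog), leave the cell cycle, fuse, and make the contractile apparatus, the sarcomere. Others keep or regain Pax7, the transcription factor of quiescent satellite cells, and return to the stem cell pool. The fiber and its sheath of basal lamina are the niche in which that choice is normally made, and satellite cells there are neighbors of capillary endothelium, pericytes, fibroblasts and Schwann cells of the nerve.

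Of 20947 genes tested, 2342 (11.2%) were higher and 3109 (14.8%) lower in Mf-A than in dispersed myoblasts at 72 hr (limma, Benjamini-Hochberg adjusted p under 0.01), together 26% of genes. The counts of called genes given for each list below stand against these shares of all genes. A difference of at least 2-fold was reached by 979 (4.67%) higher and 1192 (5.69%) lower genes. For 9562 genes (45.6%) the 4 arrays of one culture did not overlap the 4 of the other. The 12 largest rises were Trim63, Eef1a2, Smpx, Xirp2, Ip6k3, Dupd1, Srrm4os, Hfe2, Nmrk2, Mybpc2, Ckm and Gsta2, most of them genes of the differentiated muscle fiber. The 12 largest falls were Hsd3b6, Rnf39, Rassf6, Edn1, Cnn1, Hoxb7, Emcn, Cxcl3, Angpt2, Vsig2, Krt20 and Kcnmb1, among them genes best known from blood vessels (Edn1, Emcn and Angpt2) and from smooth muscle (Cnn1 and Kcnmb1).

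Trim63, the muscle ubiquitin ligase MuRF1 that breaks down sarcomere proteins (probe at chr4:133885025-133885084, mm9), read 14.04, 16.11, 13.75 and 16.32 on Mf-A replicates 1 to 4 and 5.35, 4.63, 4.30 and 4.20 on dispersed replicates 5 to 8. The cultures were far apart, and the dispersed value was well above background on 2 of 4 arrays. The log2 difference was 10.44 ± 0.62 (SE, adjusted p = 2.11e-05). For genes that no dispersed array showed well above background only a bound can be given: the elongation factor Eef1a2 was at least 144-fold, the inositol phosphate kinase Ip6k3 at least 84.7-fold and the hemojuvelin gene Hfe2 at least 76.2-fold higher in Mf-A. In the other direction, Hsd3b6 was at least 33.1-fold, Rnf39 at least 32.0-fold, Rassf6 at least 19.7-fold, Kcnmb1 at least 20.9-fold and Krt20 at least 17.1-fold lower, none of them well above background on any Mf-A array. Edn1, which encodes the vessel-constricting peptide endothelin, read 6.68, 7.07, 5.83 and 6.16 in Mf-A and 12.19, 12.53, 12.75 and 12.37 in dispersed myoblasts. Its groups were far apart, with a log2 difference of -6.02 ± 0.26 (adjusted p = 7.24e-06).

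**Figure D2:**
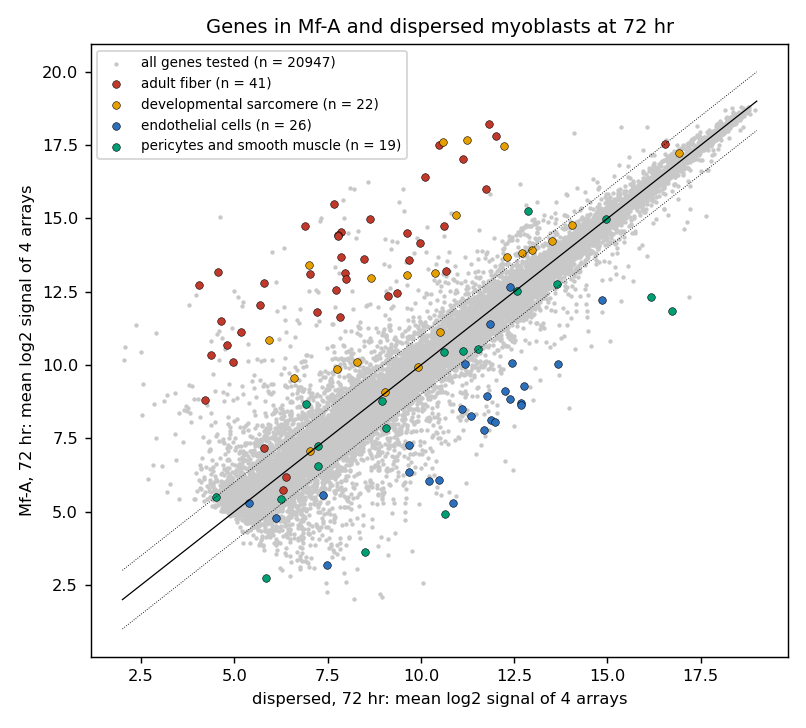
Mean log2 signal of 4 Mf-A arrays (vertical) against 4 dispersed arrays (horizontal) for the 20947 genes tested (gray), with the line of equality and dotted lines at a 2-fold difference. Most adult fiber genes (red) and most developmental sarcomere genes (orange) lie above the diagonal, and 22 of 26 endothelial genes (blue) more than 2-fold below it. Of 19 genes of pericytes and smooth muscle (green), 15 lie below it and 4 above, among them Des at 2.38.

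Genes of the adult muscle fiber were the group with the largest shift. Of 44 such genes listed, 41 passed the filter on low signal, 37 of these were higher in Mf-A, none was lower, and the median log2 difference was 5.79, against -0.02 over all genes tested. Ckm, the creatine kinase of muscle, read 14.57, 16.37, 14.15 and 16.93 in Mf-A against 8.20, 7.97, 7.50 and 7.04 in dispersed myoblasts. The groups did not overlap and differed by 7.83 ± 0.63 (adjusted p = 8.07e-05). Myh4, the myosin heavy chain of the fastest adult fibers (probe at chr11:67073834-67073893, mm9), read 16.95, 18.03, 16.73 and 18.31 against 11.20, 10.95, 9.96 and 9.86. It stood among the brightest signals of the Mf-A arrays, with a log2 difference of 7.01 ± 0.45 (adjusted p = 2.8e-05). Xirp2 and Smpx, actin-associated proteins of muscle, were higher by 8.61 and 8.69, the fast calcium buffer parvalbumin (Pvalb) by 6.27, the calcium release channel Ryr1 by 3.10 and titin (Ttn) by 2.53. The members that did not pass were Tcap (3.91, adjusted p = 0.0317), a Z-disc protein, and the myosin genes of slower fibers, Myh2 (1.37), Myh7 (-0.19) and Myl3 (-0.54). Fbp2, Lmod2 and Myl2 fell below the filter on low signal. Fbp2 and Lmod2 were well above background on all 4 Mf-A arrays and on no dispersed array. Myl2 was well above background on all 4 arrays of each culture, and went the other way. It read 4.54, 4.59, 4.48 and 4.53 in Mf-A against 5.21, 5.25, 6.03 and 4.92 in dispersed myoblasts.

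The adult fiber genes also split the Mf-A arrays among themselves. Their mean log2 signal was 12.35, 13.87, 11.99 and 14.38 on Mf-A replicates 1 to 4, and 8.14, 8.13, 7.98 and 7.78 on dispersed replicates 5 to 8. Replicates 2 and 4, which lay in the slide's column 2, were above replicates 1 and 3 of column 1, and the dispersed slide showed no such step between the same columns. Tcap showed the split, at 11.51, 15.82, 10.86 and 16.15 in Mf-A, with replicates 1 and 3 close to the dispersed values of 10.35, 9.43, 9.81 and 9.08. With replicates 2 and 4 left out, a choice made after these values were seen, 36 of the 41 genes were still higher and the list's median was 4.24. The part of these arrays, of their slide column, or of fiber RNA in the preparation in these differences was not tested.

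Genes of the developing and newly built sarcomere were also higher in Mf-A. Of 22 listed, all passed the filter, 15 were higher in Mf-A, none was lower, and the median was 1.97. Myh8, the perinatal myosin, was 128-fold higher (adjusted p = 4.21e-05). It read 16.93, 18.23, 16.67 and 18.54 against 11.26, 11.03, 10.04 and 10.03, close to the adult Myh4 on every array. Whether the probes of Myh8 and Myh4 read separate transcripts was not tested. The light chain Myl1 was higher by 6.46 and the myosin-binding protein Mybph by 6.41. The heart form of troponin T, Tnnt2, which embryonic muscle also makes, was higher by 1.12. Skeletal alpha-actin, Acta1, the main thin filament protein of adult muscle, read 16.77, 18.15, 16.48 and 18.47 against 11.88, 12.39, 12.42 and 12.19. Replicates 2 and 4 were again the highest, the groups did not overlap, and the log2 difference was 5.25 ± 0.44 (adjusted p = 9.99e-05). Cardiac alpha-actin, Actc1, the form that embryonic and regenerating muscle uses, read 12.77, 12.98, 12.85 and 13.94 against 9.58, 10.47, 10.50 and 10.97, a smaller gap of 2.75 ± 0.35 (adjusted p = 0.000619) without overlap. Myh3, the embryonic myosin, went its own way at 11.25, 8.53, 11.81 and 8.11 in Mf-A and 9.15, 10.03, 9.83 and 10.70 in dispersed myoblasts. Here replicates 2 and 4 were the lowest of the 8 arrays and replicates 1 and 3 the highest, so that the group means were equal (9.93 in both) and the 95% interval of the difference ran from -1.97 to 1.97. Its 2 probes differed in sign.

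Promoters of Acta1 and Actc1 of this list, of Myh4 of the adult fiber list and of the regulator Myog are shown. They are given because muscle promoters are known for E-boxes, bound by the Myod1 and myogenin family, and for CArG boxes, bound by serum response factor. The sequences are the 250 bases before the annotated start from RefSeq (GRCm38.p6), 5' to 3' on the gene's strand, with E-boxes (CANNTG) and CArG boxes in capitals. Both motifs were sought on both strands, and they do not overlap in these sequences. Acta1 lies at chr8:123894776-123895025 (minus strand), Actc1 at chr2:114052876-114053125 (minus), Myh4 at chr11:67237562-67237811 (plus), and Myog at chr1:134289754-134290003 (plus).
Acta1: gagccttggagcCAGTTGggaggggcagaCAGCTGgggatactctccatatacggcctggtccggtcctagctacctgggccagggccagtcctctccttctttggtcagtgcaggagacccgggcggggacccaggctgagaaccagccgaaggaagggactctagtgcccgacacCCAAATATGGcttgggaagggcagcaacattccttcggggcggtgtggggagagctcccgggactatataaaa
Actc1: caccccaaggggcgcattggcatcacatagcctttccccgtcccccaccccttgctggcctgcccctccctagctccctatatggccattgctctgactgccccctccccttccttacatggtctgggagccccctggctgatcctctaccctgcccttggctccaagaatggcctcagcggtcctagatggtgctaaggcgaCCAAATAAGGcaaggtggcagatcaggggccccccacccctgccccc
Myh4: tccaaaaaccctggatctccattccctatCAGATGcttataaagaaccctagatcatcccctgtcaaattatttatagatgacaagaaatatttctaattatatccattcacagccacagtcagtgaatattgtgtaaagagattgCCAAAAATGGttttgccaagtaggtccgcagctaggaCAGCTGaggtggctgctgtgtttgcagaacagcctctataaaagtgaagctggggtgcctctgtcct
Myog: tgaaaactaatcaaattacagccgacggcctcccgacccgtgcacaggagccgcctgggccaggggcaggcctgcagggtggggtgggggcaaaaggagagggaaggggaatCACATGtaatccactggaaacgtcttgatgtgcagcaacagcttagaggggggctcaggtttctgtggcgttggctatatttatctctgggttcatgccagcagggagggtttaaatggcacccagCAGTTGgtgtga
Acta1 and Myh4 hold 2 E-boxes and 1 CArG box each, Actc1 holds 1 CArG box and no E-box, and Myog 2 E-boxes and no CArG box. Promoters were listed for 26 of the 37 higher adult fiber genes, and 25 of their 31 promoters (80.6%) hold an E-box, as do 66.2% of 32851 mouse promoters of the same length. In 13 of the 15 higher developmental sarcomere genes the share was 14 of 18 promoters (77.8%). A CArG box stood in 3 of those 18 (16.7%; Acta1, Actc1 and Nebl) and in 1 of the 31 of the adult fiber genes (Myh4), against 1.47% of mouse promoters. These are letter matches in a short window, not sites shown to be bound.

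Among 21 myogenic regulators tested (24 listed), 4 were higher and 2 lower in Mf-A, with a median of 0.20, so most of the list lay near the bulk of the genes. Myf6 (Mrf4), the member of the Myod1 family that marks mature fibers, read 13.34, 14.88, 12.43 and 15.35 against 6.42, 6.35, 6.33 and 6.28. Again replicates 2 and 4 were the highest of widely separated groups, and the difference was 7.66 ± 0.59 (adjusted p = 6.36e-05). Myog, the factor that starts terminal differentiation (probe at chr1:136188874-136188933, mm9), read 13.33, 14.21, 12.89 and 14.99 against 9.75, 10.04, 10.13 and 10.58. All Mf-A arrays were above all dispersed ones, by 3.73 ± 0.43 (adjusted p = 0.000424). Myod1, at 15.58, 15.46, 15.72 and 15.30 against 14.88, 14.90, 15.07 and 15.36, overlapped between the cultures and did not pass (0.46 ± 0.13, adjusted p = 0.0226), but passed without dispersed replicate 8 (0.56, adjusted p = 0.0079). Mef2c, a partner of these factors, differed by 1.99 with Mf-A values from 6.19 to 9.40 and did not pass (adjusted p = 0.0438), but passed without Mf-A replicate 3 (2.55, adjusted p = 0.0095). The early determination factor Myf5 did not pass either (-0.34, adjusted p = 0.205). Mstn, the secreted brake on muscle growth, fell below the filter but was well above background on all 4 Mf-A arrays and on no dispersed array.

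Fusion is carried by the membrane proteins myomaker and myomixer, listed on the array under their older names Tmem8c and Gm7325. Myomaker differed by 0.82 (adjusted p = 0.0908) and myomixer by 0.48 (adjusted p = 0.409), and myomixer read 10.92, 9.63, 11.30 and 9.25 in Mf-A against 9.50, 9.76, 9.72 and 10.19. As for Myh3, replicates 2 and 4 were below replicates 1 and 3. Without those 2 arrays, a choice made after the values were seen, myomaker differed by 1.48 (adjusted p = 0.0011) and myomixer by 1.32 (adjusted p = 0.0052), and both passed. Of 26 genes of fusion and adhesion tested, only the caveolin of muscle membranes, Cav3 (7.08), was higher in Mf-A, and 5 were lower, including Dock5 (-2.19), an activator of the Rac GTPase, and the interleukin 4 receptor Il4ra (-1.25).

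**Figure D3:**
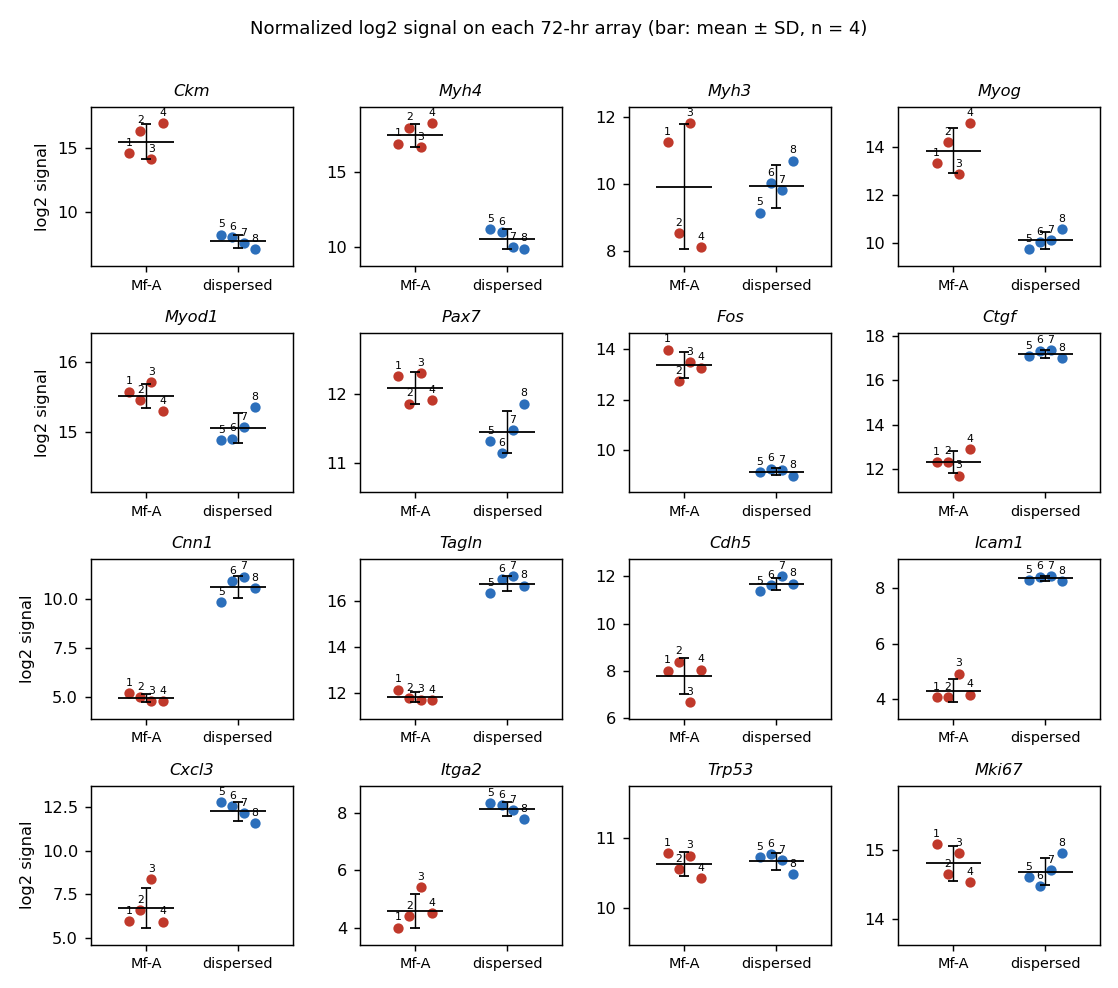
Normalized log2 signal of 16 genes on each 72-hr array (points, numbered by replicate; Mf-A red, dispersed blue) with mean ± SD of 4 arrays; vertical scales differ between panels. Mf-A replicates 2 and 4 are above 1 and 3 for Ckm, Myh4 and Myog and below them for Myh3, while Fos is higher and Ctgf, Cnn1, Tagln, Cdh5, Icam1, Cxcl3 and Itga2 are lower on every Mf-A array.

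Genes that identify satellite cells differed in both directions at 72 hr. Of 28 listed, 26 passed the filter, 7 (26.9%) were higher and 4 (15.4%) lower in Mf-A, against 11.2% and 14.8% of all genes, and the median was 0.34. Pax7 (probe at chr4:139294364-139294423, mm9) read 12.26, 11.86, 12.30 and 11.91 against 11.32, 11.15, 11.48 and 11.86. The groups met at 11.86, and the difference of 0.63 ± 0.17 did not pass (adjusted p = 0.0193). Without dispersed replicate 8, the highest of its group, it was 0.76 and passed (adjusted p = 0.0062). The genes that were higher included the BMP antagonist Chrdl2 (2.20 ± 0.15, adjusted p = 4.17e-05), the imprinted gene Peg3 (1.21), the chemokine receptor Cxcr4 (0.76) and the heparan sulfate carrier syndecan-3, Sdc3 (0.74). Those that were lower included the surface sialomucin Cd34 (-2.18 ± 0.23, adjusted p = 0.00027), which endothelial and connective tissue cells also carry, the sister factor of Pax7, Pax3 (-1.17), and the integrin subunit Itgb1 (-0.88).

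The same list stood elsewhere at 48 hr. With the 16 arrays normalized together, 13 of its 26 genes were below 0 at 48 hr and above 0 at 72 hr in the difference between Mf-A and dispersed myoblasts, as were 14.1% of all genes, and its median went from -0.54 to 0.34. The change of the difference between the times, the interaction of culture and time, was above 0 for 468 genes (2.23%) and below 0 for 201 (0.96%) at an adjusted p under 0.01, and for 8 and 0 of the 26 satellite cell genes. Pax7 averaged 10.31 ± 0.26 in Mf-A and 11.17 ± 0.15 in dispersed myoblasts at 48 hr, and 11.99 ± 0.23 and 11.36 ± 0.31 at 72 hr (SD, n = 4). Its level in Mf-A thus went from below to above that in dispersed myoblasts, with an interaction of 1.49 ± 0.23 (SE, adjusted p = 0.00201). The FGF receptor Fgfr4 had an interaction of 2.12, Peg3 of 2.24, Cxcr4 of 1.69, Sdc3 of 1.17, the adhesion molecule Jam2 of 1.16 and the transcription factor Sox8 of 2.88, though at 72 hr Jam2 (0.07), Fgfr4 (0.57) and Sox8 (-0.93, adjusted p = 0.0114) did not differ past the threshold. Sox8 did so without dispersed replicate 5 (-1.07, adjusted p = 0.0096). With 1 of the 16 arrays left out, the interaction missed the threshold in 13 fits for Sox8, in 10 for Sdc3, in 8 for Cxcr4, and in none for Pax7, Fgfr4, Peg3 and Jam2. In this comparison, the 72-hr arrays lay in columns 1 and 2 and the 48-hr arrays in columns 3 and 4 of each slide, so time and column cannot be told apart.

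Myog ran the other way. It averaged 14.41 ± 0.48 in Mf-A and 6.17 ± 0.42 in dispersed myoblasts at 48 hr, and 13.77 ± 0.93 and 10.05 ± 0.34 at 72 hr. The gap of 8.24 shrank to 3.72, an interaction of -4.52 ± 0.55 (adjusted p = 0.00054), with the larger step in the dispersed cells. The M-band protein Myom3 (-3.83), Ryr1 (-2.85) and the slow light chain Myl3 (-4.11) had interactions of the same sign, which for Ryr1 missed the threshold in 12 and for Myl3 in 9 of the 16 fits that left out 1 array. Myh4 (1.24, adjusted p = 0.167), Ckm (0.18, adjusted p = 0.884) and Myf6 (-1.24, adjusted p = 0.21) did not pass, and the embryonic Myh3, which went from 3.04 ± 0.59 to 9.84 ± 1.87 in Mf-A and from 6.52 ± 0.94 to 9.85 ± 0.63 in dispersed myoblasts, had an interaction of 3.48 (adjusted p = 0.0399). Of the 979 genes at least 2-fold higher in Mf-A at 72 hr, 920 were above 0 and 678 were called higher at 48 hr. Of the 1192 at least 2-fold lower genes, 1173 were below 0 and 1018 were called lower at 48 hr.

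**Figure D4:**
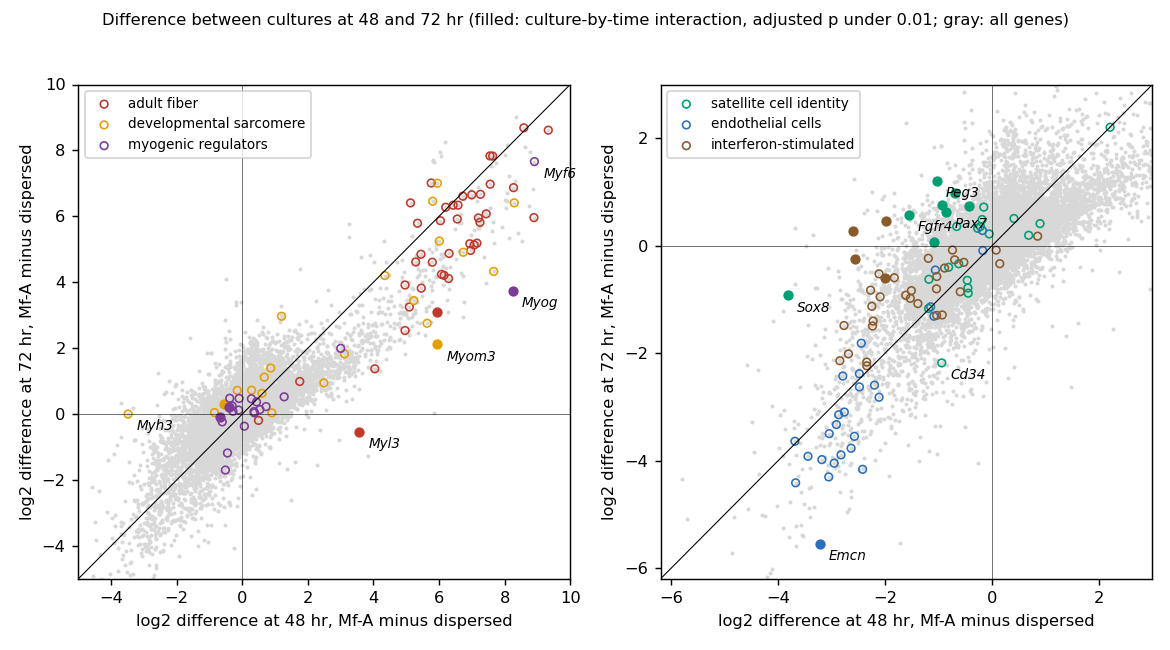
Log2 difference of Mf-A minus dispersed myoblasts at 72 hr (vertical) against 48 hr (horizontal), 4 arrays per group, for all genes (gray) and named lists (colors); filled points passed the test of the interaction, the diagonal marks equal differences, and the axes leave out the outermost genes. Myog, Myom3 and Myl3 lie below the diagonal, and Pax7, Fgfr4 and Peg3 lie above it.

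Lists of markers of the other cells of muscle held more genes lower than higher in Mf-A, except those of adipocytes (3 higher and 2 lower) and tenocytes (2 and 2). Of 30 endothelial genes listed, 26 passed the filter, 22 of these were lower in Mf-A, each by at least 2-fold, none was higher, and the median was -3.24. Cdh5, the adhesion protein VE-cadherin, read 8.01, 8.39, 6.69 and 8.05 in Mf-A against 11.38, 11.64, 12.01 and 11.69. The groups did not overlap, the difference was -3.89 ± 0.34 (adjusted p = 0.000125), and Mf-A replicate 3 was the lowest. The sialomucin Emcn (probe at chr3:137086389-137086448, mm9), at 5.66, 5.80, 4.50 and 5.27 against 10.61, 11.00, 11.16 and 10.66, differed by -5.55 ± 0.28 (adjusted p = 1.12e-05). This gap was wider than the one at 48 hr (interaction -2.34 ± 0.40, adjusted p = 0.00355). Among the transcription factors of this lineage, Sox18 was lower by 4.41 log2 units and Sox17 by 4.16, and the adhesion protein Pecam1 by 2.43. Erg, well above background on 1 of 4 Mf-A arrays, differed by -4.30. The vessel-remodeling ligand Angpt2 was lower by 5.42. Kdr, the main VEGF receptor, differed by 0.28 (adjusted p = 0.0198) on its brighter probe, while the mean of its 2 probes, which disagree, was -1.61. The mean of the 26 genes was 8.12, 8.56, 7.55 and 8.16 on Mf-A replicates 1 to 4 and 10.78 to 11.23 on the dispersed arrays, so these transcripts were present, at a lower level, in the Mf-A preparations too.

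Several genes of the contractile apparatus of smooth muscle were lower in Mf-A. Of 19 genes of pericytes and smooth muscle tested (20 listed), 7 were lower and 1 higher, with a median of -0.69. Cnn1, the actin-binding calponin of smooth muscle (probe at chr9:21913058-21913117, mm9), read 5.17, 4.98, 4.77 and 4.76 against 9.87, 10.93, 11.16 and 10.58. Its difference was -5.71 ± 0.26 (adjusted p = 8.46e-06), with no overlap. Tagln (SM22), another actin-binding protein, read 12.15, 11.78, 11.72 and 11.69 against 16.31, 16.93, 17.05 and 16.65, a difference of -4.90 ± 0.18 (adjusted p = 3.94e-06). Smooth muscle myosin Myh11 differed by -4.89 and was well above background on 1 of 4 Mf-A arrays, and smooth muscle actin Acta2 differed by -3.84. Of the list's markers of the pericyte itself, Rgs5 (-0.17), Notch3 (-0.05) and Pdgfrb (-0.63) did not pass, and the others are not reported here. Notch3 also belongs to the Notch genes below. The 1 gene that was higher was Des (2.38), the intermediate filament of all muscle. Myocd, the master coactivator of smooth muscle genes, fell below the filter, and was well above background on all 4 dispersed arrays and on no Mf-A array.

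Of 33 fibroblast genes tested (36 listed), 16 were lower and 1 higher, with a median of -0.98. They included the matricellular protein periostin, Postn (7.78, 7.20, 7.69 and 7.09 against 10.57, 11.19, 10.81 and 11.13), which did not overlap and differed by -3.48 ± 0.20 (adjusted p = 1.91e-05), fibulin-2 (Fbln2, -3.20), the transcription factor Osr1 (-3.05) and the PDGF receptor Pdgfra (-1.50). Of 14 Schwann cell genes tested (20 listed), 7 were lower and none higher, among them the neural crest factor Sox10 (-1.97). Foxd3 and the potassium channel Kcna1 of this list, each well above background on 1 of 4 Mf-A arrays, differed by -3.62 and -3.76. Of 22 leukocyte genes tested (29 listed), 8 were lower and 2 higher. Tyrobp, a signaling adaptor of myeloid cells, read 6.69, 7.77, 4.57 and 7.79 against 10.03, 9.65, 9.92 and 9.32, with Mf-A replicate 3 the lowest, and differed by -3.02 ± 0.67 (adjusted p = 0.00792). The macrophage mannose receptor Mrc1 was also lower (-1.44), the lysosomal protein Cd68 was higher (1.77), and lysozyme, Lyz2, did not pass (-3.47, adjusted p = 0.0138) unless Mf-A replicate 3 was left out (-2.49, adjusted p = 0.00048). Ptprc, the defining CD45 antigen, was below the filter. Of 4 mast cell genes tested (14 listed), 1 was lower. Among those below the filter, Cpa3 was well above background on 4 and Cma1 on 3 dispersed arrays, and both on no Mf-A array. Cyp11a1 went the other way, on 2 Mf-A arrays and no dispersed one. Of 11 adipocyte genes tested (16 listed), 3 were higher and 2 lower, the lipid carrier Fabp4 by -3.31, while the lipid droplet proteins Plin4 (3.25) and Cidea (at least 10.8-fold) were higher. Of 9 tenocyte genes tested (14 listed), 2 were higher, among them the tendon factor Scx (1.56), and 2 lower, among them the collagen Col12a1 (-1.41). Plin4, Cidea and Scx were highest on Mf-A replicates 2 and 4. The mean of the lists ran from 9.70 to 10.00 in Mf-A and 10.55 to 11.08 in dispersed myoblasts for fibroblasts, from 7.83 to 8.12 and 9.05 to 9.42 for Schwann cells, and from 7.22 to 8.22 and 8.53 to 9.08 for leukocytes. The part of other cells in the differences below was not tested.

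**Figure D5:**
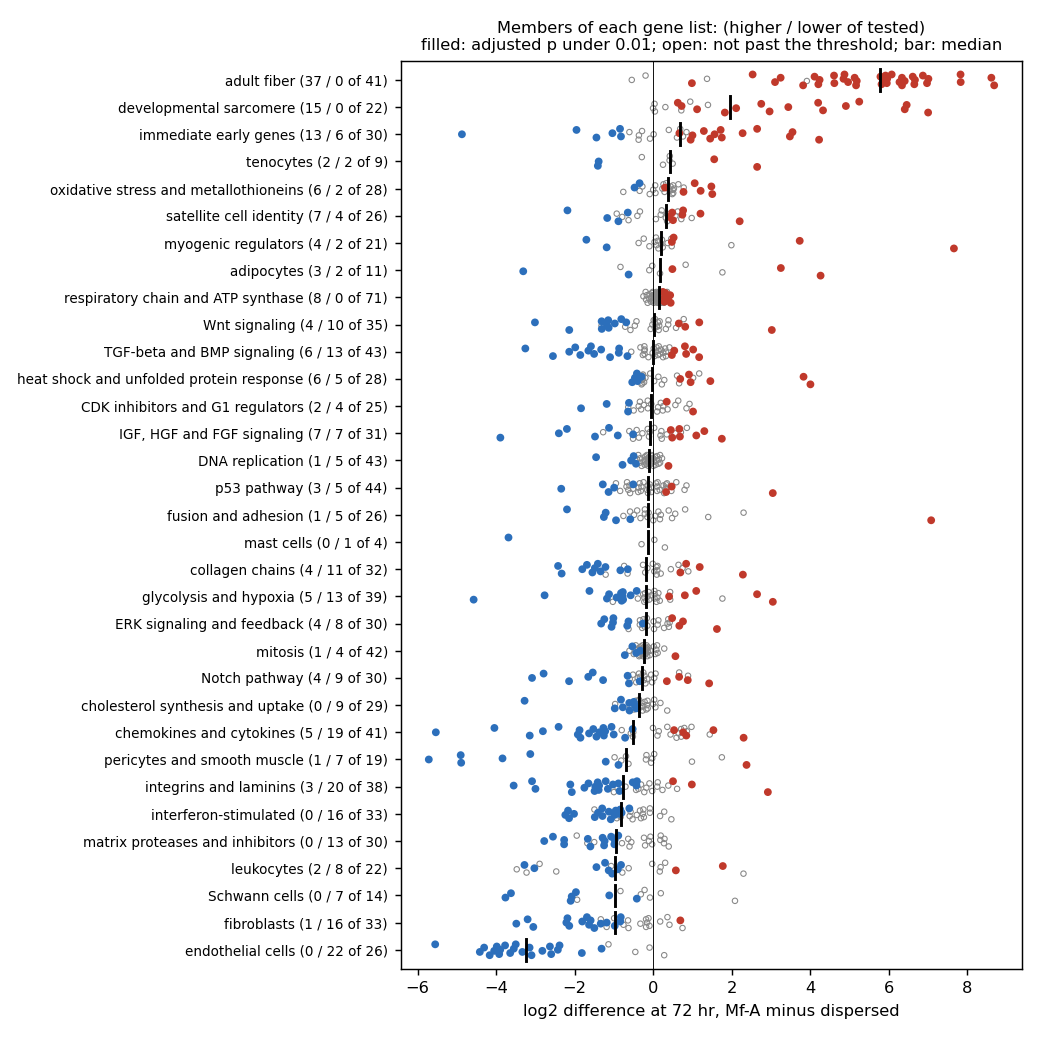
Log2 difference at 72 hr of Mf-A minus dispersed myoblasts for each tested member of 33 gene lists (points; red higher and blue lower at an adjusted p under 0.01, open not past the threshold), with the median as a bar and the counts higher, lower and tested beside each name. Lists are ordered by median, from adult fiber genes at the top (5.79) to endothelial genes at the bottom (-3.24).

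Transcripts of adhesion and matrix genes were more often lower than higher in Mf-A. Of 38 integrin, laminin and related genes tested, 20 were lower and 3 higher, with a median of -0.78. Itga2, a subunit of a collagen receptor, read 4.00, 4.40, 5.43 and 4.52 in Mf-A against 8.35, 8.30, 8.11 and 7.81, a difference of -3.55 ± 0.29 (adjusted p = 8.21e-05) without overlap. Its relative Itga1 was 7.98-fold lower and the vascular laminin chain Lama4 8.48-fold. Itga7, the laminin receptor subunit of muscle, was slightly higher (0.51, adjusted p = 0.00797), and Itgb6 was higher by 2.92 with replicates 2 and 4 at 12.06 and 12.44 and replicates 1 and 3 at 10.27. Of 32 collagen chains tested (43 listed), 11 were lower and 4 higher. The chains of basal lamina collagen, Col4a1 (-2.42) and Col4a2 (-2.33), and of fibril collagen type I, Col1a1 (-1.69) and Col1a2 (-1.80), were lower, and Col3a1 (0.69) was higher. Col26a1 read 11.81, 10.81, 11.16 and 10.73 against 8.77, 8.62, 8.74 and 9.24, without overlap, and differed by 2.29 ± 0.25 (adjusted p = 0.000314). It had averaged 7.99 ± 0.42 in Mf-A and 8.36 ± 0.16 in dispersed myoblasts at 48 hr, an interaction of 2.65 ± 0.34 (adjusted p = 0.000689). Of 30 matrix proteases and their inhibitors tested (45 listed), 13 were lower and none higher. They included the protease inhibitor Timp3 (-2.77) and the proteases Mmp10 (-2.27) and Adamts8 (-2.27).

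Immediate early genes, which answer within minutes to growth factors, stretch or handling, were split. Of 30 tested (32 listed), 13 were higher in Mf-A and 6 lower, with a median of 0.68. Fos (probe at chr12:86817900-86817959, mm9), a subunit of the AP-1 transcription factor, read 13.98, 12.73, 13.49 and 13.27 in Mf-A against 9.13, 9.26, 9.20 and 8.98. The dispersed arrays lay close together and far below, and the difference was 4.23 ± 0.23 (adjusted p = 1.64e-05). Fosb was higher by 3.48, the cytoskeletal gene Arc by 3.55, the zinc finger factor Egr1 by 2.65 and the phosphatase Dusp1 by 1.63. Ctgf (Ccn2), a matrix signaling protein known as a target of serum response factor and of YAP (probe at chr10:24318281-24318340, mm9), went against them at 12.33, 12.35, 11.72 and 12.91 against 17.10, 17.33, 17.36 and 16.99. Its difference was -4.87 ± 0.23 (adjusted p = 8.94e-06), and it was wider than at 48 hr (interaction -1.53 ± 0.27, adjusted p = 0.00397). The Mf-A preparations were treated with trypsin, washed and centrifuged off the fibers before lysis, and the part of that handling in these differences was not tested.

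Of 41 chemokines, cytokines and related genes tested (47 listed), 19 were lower in Mf-A and 5 higher. Cxcl3, a neutrophil attractant, read 5.95, 6.59, 8.39 and 5.94 against 12.76, 12.54, 12.13 and 11.57. All Mf-A arrays were lower, with replicate 3 nearest to the dispersed ones, by -5.53 ± 0.55 (adjusted p = 0.00021). Icam1, the adhesion molecule for leukocytes, read 4.08, 4.08, 4.92 and 4.16, on 3 of 4 arrays well above background, against 8.31, 8.42, 8.44 and 8.25, a difference of -4.04 ± 0.19 (adjusted p = 8.56e-06). Ccl9 was lower by 3.14, and Cxcl14 was higher by 2.30. Of 33 interferon-stimulated genes tested (42 listed), 16 were lower and none higher, with a median of -0.83, against -1.61 at 48 hr. The antiviral enzyme Oas1a (-2.24), the mono-ADP-ribosyl transferase Parp14 (-2.17) and the guanylate-binding protein Gbp2 (-2.14) were the lowest of the called ones. At an adjusted p under 0.01 the interaction was above 0 for 4 genes of this list and below 0 for none, against 2.23% and 0.96% of all genes. Past the threshold or not, it was above 0 for 27 of the 33 genes, against 57.3% of all genes.

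Signals between cells differed gene by gene. Of 31 genes of IGF, HGF and FGF signaling tested (34 listed), 7 were higher and 7 lower. Hgf, the ligand that activates satellite cells, read 6.69, 7.05, 6.95 and 7.36 in Mf-A against 5.55, 5.92, 5.47 and 4.09, of which 3 of 4 arrays were well above background. The groups did not overlap and differed by 1.75 ± 0.37 (adjusted p = 0.0065). The growth factor Fgf18 was lower by 2.20 and the IGF-binding protein Igfbp7 by 2.40. Fgf5 differed by -3.89, with 2 of 4 Mf-A arrays well above background. Of 43 genes of TGF-beta and BMP signaling tested (45 listed), 13 were lower and 6 higher, around a median of -0.01. The ligands Bmp6 (-3.25) and activin A (Inhba, -2.14) were lower, and the BMP inhibitor noggin, Nog, was higher (8.59, 8.77, 8.74 and 8.54 against 7.48, 7.47, 7.65 and 7.35; 1.17 ± 0.09, adjusted p = 5.87e-05).

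Of 30 Notch pathway genes tested (33 listed), 9 were lower and 4 higher. The endothelial receptor Notch4 (-2.79), the receptor-modifying enzyme Mfng (-3.08) and the pathway's target Nrarp (-2.14) were lower. Notch1, a receptor known to hold satellite cells back from differentiation, read 8.09, 7.54, 8.62 and 7.70 against 6.85, 6.78, 6.24 and 6.35, without overlap, and was higher by 1.43 ± 0.25 (adjusted p = 0.00286). That value is of its brightest probe, and the mean of all its probes differed by 0.20 and did not pass (adjusted p = 0.49). Notch3 did not differ past the threshold at 72 hr (-0.05, 95% interval of the difference from -0.50 to 0.40), and averaged 10.97 ± 0.30 in Mf-A and 12.72 ± 0.37 in dispersed myoblasts at 48 hr (interaction 1.71 ± 0.30, adjusted p = 0.00415). Of 35 Wnt genes tested (49 listed), 10 were lower, the inhibitor Dkk2 by -3.01, and 4 higher, the ligand Wnt4 by 3.02. Of 30 genes of ERK signaling and its feedback, 8 were lower, among them the ERK phosphatase Dusp6 (-1.06) and the FGF inhibitor Il17rd (-1.32), and 4 higher.

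Trp53, the gene of p53 (probe at chr11:69404204-69404263, mm9), read 10.79, 10.56, 10.75 and 10.42 in Mf-A against 10.73, 10.77, 10.68 and 10.48. The groups overlapped throughout, and the 95% interval of the difference ran from -0.28 to 0.21. It had averaged 9.93 ± 0.15 in Mf-A and 10.64 ± 0.06 in dispersed myoblasts at 48 hr, an interaction of 0.67 ± 0.14 (adjusted p = 0.00843), which lay between 0.61 and 0.74 and missed the threshold in 13 of the 16 fits that left out 1 array. Of 44 genes of the p53 pathway, 3 (6.82%) were higher and 5 (11.4%) lower, both below the 11.2% and 14.8% of all genes. The stress gene Gadd45a was higher by 3.05 ± 0.47 (adjusted p = 0.0016), with replicates 2 and 4 at 14.30 and 14.41 and replicates 1 and 3 at 12.74 and 12.32, and the matrix protein Thbs1 (-2.34), the caspase activator Apaf1 (-1.28) and the death receptor Fas (-1.13) were lower.

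The medians of proliferation genes were close to the bulk of the genes at 72 hr. Of 43 genes of DNA replication, 5 were lower and 1 higher, with a median of -0.11, and of 42 genes of mitosis 4 were lower and 1 higher, with a median of -0.24. Called or not, 30 of the 43 and 35 of the 42 were below 0, against 10886 of 20947 genes. At 48 hr 21 and 35 were called lower, against 6643 of all genes. The interaction was above 0 for 41 genes of each list, against 57.3% of all genes, and passed for none. Mki67, the proliferation marker, read 15.08, 14.65, 14.95 and 14.54 against 14.61, 14.48, 14.71 and 14.95. The groups overlapped, with a 95% interval of the difference from -0.22 to 0.46. The ribonucleotide reductase subunit Rrm2 (0.39) and the phosphatase Cdc25b (0.57) were higher and the origin recognition subunit Orc1 (-0.78) lower. Of 25 cyclin-dependent kinase inhibitors and G1 regulators, 2 (8%) were higher and 4 (16%) lower, against 11.2% and 14.8% of all genes. The growth arrest gene Gas1 was higher by 1.02 at 72 hr (adjusted p = 0.000293; interaction 1.10), and the inhibitor Cdkn1c (-1.18) and the cyclin Ccnd2 (-1.84) were lower.

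In metabolism, of 71 genes of the respiratory chain 8 (11.3%) were higher, a share close to the 11.2% of all genes tested, each by less than 2-fold. None was lower, against 14.8% of all genes, and the median was 0.16. Of 39 genes of glycolysis and hypoxia tested (40 listed), 13 were lower and 5 higher. The phosphofructokinase of muscle, Pfkm, was higher by 3.05 and Pfkfb4 by 2.65, both led by Mf-A replicates 2 and 4, while the vasodilator peptide adrenomedullin, Adm, which hypoxia induces, read 7.95, 7.73, 8.11 and 7.89 against 12.48, 12.77, 12.60 and 12.12. Adm differed by -4.57 ± 0.15 (adjusted p = 2.65e-06), and by -2.63 at 48 hr (interaction -1.93, adjusted p = 0.00133). Ndufa4l2, another gene that hypoxia induces, was lower by 2.76. Of 29 genes of cholesterol synthesis and uptake, 9 were lower and none higher, most by less than 2-fold, with the sterol exporter Abcg1 at -3.27. Of 28 heat shock and unfolded protein genes tested, 6 (21.4%) were higher and 5 (17.9%) lower. The higher ones were led by the small heat shock proteins of muscle Hspb8 (4.01) and Cryab (3.83). Of 28 genes of oxidative stress and metal binding, 6 were higher, among them the metallothioneins Mt2 (1.51) and Mt3 (1.48) and the mitochondrial carrier Ucp2 (1.21), and 2 lower. Ucp2 had been lower in Mf-A at 48 hr, with an interaction of 2.27 ± 0.27 (adjusted p = 0.000533).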

How the data were processed

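For each array the authors deposited the scanner's table of spots (Agilent Feature Extraction 11.0.1.1), in which processed signals are fluorescence intensity with background already removed by that software. The series-wide log ratios were not used here. Control spots and outlier flags were left out, and log2 signals of the 8 arrays at 72 hr were quantile-normalized. Copies of a probe were averaged, and the brightest probe of a gene was kept. Testing required a median log2 signal of 5 or more over the 8 arrays, which a gene bright in only 1 culture could reach. Cultures were compared with limma 3.58.1 (R 4.3.3, moderated t, two-sided, Benjamini-Hochberg over all genes, adjusted p under 0.01), and the interaction on 16 arrays normalized together. No correction was made for slide. Where no array of a group was well above background, the fold between group means was bounded. The limit was, per array, the lowest signal among probes well above background, or the probe's own signal if higher. That lowest signal was 3.63 to 4.4 over the 8 arrays. The 99th percentile of probes not well above background was higher, at 3.79 to 4.62, and would give smaller bounds. With 4 arrays a group, their number limits the precision. Each replicate was an independent preparation per the labels, except that 1 Mf-A array at 48 hr (replicate 10+11) was a pool. Genes and the 34 lists were chosen with earlier results of these data known. The genes named are the 12 largest rises and falls outside RIKEN, predicted and accession names, up to 4 called members of each list, defining members, and genes the paper names; some that this rule names are not reported here. The fits were tested on simulated data with 200 changed genes. The simulated noise was independent between genes and arrays, so it held no slide effect and no split of Mf-A replicates 2 and 4. The closing section gives the alternatives. Tables and figures were made with data.table (1.17.8), pandas 2.3.3, numpy 2.4.6, matplotlib 3.10.9 and Python 3.11.15.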

Additional observations from a re-analysis of the deposited data

Results flagged for a closer look

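In 15 of 382 groups of 4 arrays 1 array lay far from the other 3, by Dixon's test, which chance gives in about 1 group in 20. On dispersed replicate 5, Eef1a2 (3.52) and Ip6k3 (2.31) were above the other dispersed arrays, though not well above background, and Igfbp7 (9.27), Ndufa4l2 (10.33), the mean of the pericyte and smooth muscle genes (9.73) and the mean of the Notch genes (9.85) were below them. On dispersed replicate 6 the mean of the interferon-stimulated genes was high (8.49). On dispersed replicate 7, Gsta2 (6.89) and the mean of the E1A spike-ins before normalization (12.15) were low. On dispersed replicate 8, Itgb1 (13.50) was low and myomaker, Tmem8c (8.88), high. In Mf-A, Foxd3 on replicate 1 was low (1.83), Rassf6 on replicate 2 was high (2.55), and on replicate 3 Icam1 (4.92) was high and Nrarp (3.86) low.

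The difference between the cultures changed from 48 to 72 hr for 23 of the named genes (interaction of culture and time, limma, adjusted p under 0.01). It moved up, toward higher in Mf-A, for Sox8 (2.88), Col26a1 (2.65), Ucp2 (2.27), Peg3 (2.24), Fgfr4 (2.12), Notch3 (1.71), Cxcr4 (1.69), Pax7 (1.49), Sdc3 (1.17), Jam2 (1.16), Gas1 (1.10) and Trp53 (0.67). It moved down for Myog (-4.52), Myl3 (-4.11), Myom3 (-3.83), Ryr1 (-2.85), Emcn (-2.34), Hoxb7 (-1.96), Adm (-1.93), Adamts8 (-1.66), Angpt2 (-1.61), Dkk2 (-1.58) and Ctgf (-1.53). In the 16 fits that each left out 1 array these interactions kept their sign. The threshold was missed in 13 fits for Sox8 and Trp53, 12 for Angpt2 and Ryr1, 11 for Dkk2 and Hoxb7, 10 for Sdc3, 9 for Myl3, 8 for Cxcr4, 5 for Notch3, 3 for Ctgf and 2 for Emcn, and in none for the others.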

How the results depend on the processing

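Scaling to the E1A spike-ins turned 1367 calls into calls in the other direction and the mean of all probes 7, and no other setting tried turned any. Cyclic loess, loess to the 48-hr arrays, a filter on signal well above background, 1 fit of 16 arrays, and the slide row or column as a block gave 1972 to 2622 higher and 2792 to 3715 lower genes. Scaled to the E1A spike-ins, 18585 genes were higher and 432 lower, 14262 and 329 of them at least 2-fold. On that scale 13 named calls were lost with their sign kept. Another 11 named genes, not called before, passed as higher: Fgfr4 (1.71), Gm7325 (1.65), Jam2 (1.23), Kdr (1.42), Mef2c (3.37), Mki67 (1.27), Myh2 (2.75), Myod1 (1.65), Pax7 (1.76), Tcap (5.09) and Tmem8c (2.02). The differences of 13 other named genes turned from below to above 0: Dusp6 (0.10), Fas (0.08), Itgb1 (0.27), Myf5 (0.97), Myh7 (1.21), Myl3 (0.89), Notch3 (1.09), Orc1 (0.48), Pax3 (0.12), Pdgfrb (0.51), Rgs5 (1.05), Sox8 (0.48) and Trp53 (1.10). Of these, Myf5, Myh7, Notch3 and Trp53 passed as higher. With the mean of all probes Kdr turned to -1.61, and Notch1 (0.20), Peg3 (0.99) and Col12a1 (-0.68) missed the threshold. Normexp background correction left 788 genes at least 2-fold lower, and the array position as a block left 1169 higher and 1713 lower. With 1 array left out, the number of higher genes was 1251 to 2290 and of lower genes 1904 to 3199. It was over 1.5 times smaller without dispersed replicate 5 (1394 and 1971), 6 (1283 and 1904) or 7 (1251 and 1948). At an adjusted p under 0.01 the interaction was above 0 for 191 to 1096 genes and below 0 for 67 to 599 with 1 array left out (highest without Mf-A replicate 4 at 72 hr), for 1335 and 974 without the pooled Mf-A array at 48 hr, and for 271 and 127 with no filter on low signal. The list medians moved by more than the SD between replicates as follows. Scaling to the 75th percentile, and to the spike-ins after centering, gave -0.25 for ERK signaling, -0.08 for TGF-beta and BMP and -0.04 for Wnt. Normexp gave -2.78 for endothelial cells, -0.61 for integrins and laminins, -0.51 for interferon-stimulated genes, -0.57 for matrix proteases and 0.17 for tenocytes. The mean of all probes gave -0.16 for ERK signaling, -0.77 for Schwann cells, -0.10 for Wnt, 0.03 for fusion and adhesion and -0.31 for mast cells. Array weights gave -0.22 for ERK signaling, -0.07 for fusion and adhesion and 0.27 for tenocytes. Without the 2 Mf-A arrays highest in adult fiber genes, chosen after seeing the data, medians were -0.22 for ERK signaling, 0.12 for IGF, HGF and FGF signaling, 4.24 for adult fiber, 0.30 for the genes named in the paper, -0.54 for integrins and laminins, 0.20 for oxidative stress, -0.02 for the p53 pathway and 0.10 for tenocytes. With 1 array left out they ranged from -0.18 to -0.08 for fusion and adhesion, -0.82 to -0.68 for integrins and laminins, 0.23 to 0.47 for tenocytes, -0.21 to -0.16 for ERK signaling and -0.10 to 0.02 for Wnt.

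Calls with an adjusted p close to the threshold were lost when some single arrays were left out: Peg3, Itga7, Hgf, Tyrobp, Ucp2, Pfkm, Pfkfb4, Cxcr4, Fas, Rrm2, Orc1, Scx, Mmp10, Itgb6, Cdc25b, Col3a1, Col12a1, Cxcl14, Erg, Chac1 and Notch1. The array position as a block ended the calls of 21 named genes at adjusted p-values up to 0.026: Arc, Cidea, Mt2, Pdgfra and Sdc3, and of those just listed all but Itga7, Scx, Itgb6, Erg and Chac1. Without Mf-A replicates 2 and 4, Cxcr4, Fas, Hgf, Itga7, Mmp10, Orc1, Rrm2 and Ttn (2.17) kept their sign and missed the threshold. With no filter on low signal 9 named calls were lost: Cxcr4, Fas, Hgf, Itga7, Peg3, Pfkfb4, Pfkm, Tyrobp and Ucp2. The slide row as a block ended 4 named calls: Hgf, Peg3, Tyrobp and Ucp2. No paired analysis was possible because the 72-hr groups share no replicate number, and the block of array position pairs places on the 2 slides, not preparations.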
